A study of Hordeum vulgare with 8 samples.

Results

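Single-nucleotide polymorphisms (SNPs) that lie close together and are fixed for the non-reference base in both near isogenic lines (NILs) of barley made up 8989 of 140560 listed variant sites (6.40%). They were found in 2895 of 40344 transcripts with a listed site. Members were chosen by their allele reads: a site was taken when the variant filter marked it as belonging to a cluster of SNPs, the reference and the other allele were 1 base each, each line had at least 5 reads, and at least 0.9 of the reads with an allele carried the non-reference base in both lines. The cluster mark was carried by 40336 sites, of which 38955 were SNPs. Of these SNPs, 22876 had at least 5 reads in each line and 16079 were shallower in at least one line, and the 8989 members were 39.3% of the deeper ones. Below, members are called clustered fixed sites, and they are set beside the 21897 SNPs that met the same limits on reads but had passed the filter, called passing fixed sites.

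RNA was sequenced from the shoot apices of 2 homozygous NILs in the Morex background, derived from a recombinant line of the family DM1. This family goes back to crosses of wild barleys with Morex, backcrossed to Morex, so both NILs can share wild barley segments elsewhere in the genome. The NIL RD has short awns and carries an introgression from the wild barley line HID382 between 132.01 and 134.21 cM on the POPSEQ map, and the NIL RM carries the Morex allele there. Plants of both lines had 16 h of light at 22 °C and 8 h of darkness at 18 °C in the greenhouse, and pooled apices of Waddington stage 5.5 were used. Each line had 4 libraries, whose reads stand together in a single column of the variant table, so the table holds no replicate values and no error between plants could be given. Over all listed sites the summed read depth was 2059680 in RD and 2050613 in RM, with a median of 10 reads per called site in each line. Levels of marker genes cannot be read from a table of variant sites, so the tissue was not checked.

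Near isogenic lines share nearly the whole genome and differ around an introgressed segment. A SNP at which both lines carry the same non-reference base therefore separates the pair from the sequence used as reference, not one line from the other. Variant callers often mark SNPs in dense groups because reads of a related gene copy, or reads that run over an insertion or the end of a transcript model, can be aligned to the wrong place. True haplotypes that have diverged from the reference also give dense groups of SNPs. In coding sequence, many changes at the last base of a codon leave the amino acid as it is, so differences between related coding sequences often lie at distances that are multiples of 3. Transitions, which exchange A with G or C with T, are usually more frequent than the other changes, the transversions. The reference was the barley gene set. In it, identifiers beginning with AK are full-length cDNAs and those beginning with MLOC are gene models predicted on the genome assembly of cv. Morex. A Morex sample outside the series was not used. Whether Morex carries the same non-reference bases, in AK or in MLOC transcripts, was therefore not examined.

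The densest form that the sites took was a stretch of directly adjacent bases that all differed from the reference. There were 440 such blocks, 418 of 2 bases, 19 of 3 bases and 3 of 4 bases, and they held 905 clustered fixed sites (10.1%). Passing fixed sites formed 183 blocks with 366 sites (1.67%), none longer than 2 bases. Because 3 adjacent sites cannot escape the cluster mark, passing blocks could not be longer than 2 bases. Blocks of 2 bases can escape it. The mark still selects sites with close neighbours, so the shares of 10.1% and 1.67% are not free of the choice of members. The 5 longest blocks, with ties decided by read depth, are shown because each replaces a whole stretch of the transcript. All letters are capitals because every base in them differs, position 1 is the 5′ end of a transcript, and the bases of RD and RM are the same.
AK365884, positions 1614 to 1617, both NILs: TTCA
AK365884, positions 1614 to 1617, reference: GGGC
MLOC_59686.1, positions 373 to 376, both NILs: GAGG
MLOC_59686.1, positions 373 to 376, reference: CCAA
MLOC_9669.1, positions 150 to 153, both NILs: GTGG
MLOC_9669.1, positions 150 to 153, reference: TACA
AK353851, positions 145 to 147, both NILs: TTG
AK353851, positions 145 to 147, reference: CAA
AK248308.1, positions 545 to 547, both NILs: AAG
AK248308.1, positions 545 to 547, reference: TCA

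The block of AK365884 was covered by 81 to 83 reads in RD and 72 to 74 reads in RM, and 1 read in each line carried a reference base. None of its 4 changes was a transition. The caller gave this block a genotype quality as low as 21 in RD and 4 in RM. Genotype quality is the caller's phred-scaled certainty of the genotype, on which 10 means a 1 in 10 chance of error, 20 means 1 in 100, and values are cut off at 99. The block of AK248308.1 was covered by 66 to 67 reads in RD and 56 reads in RM, had no reference read in either line and had a genotype quality of 99 at each of its 3 sites in both lines. The block of AK353851 had 67 to 68 reads in RD and 61 to 62 reads in RM, again with no reference read, and genotype qualities of at least 69 in RD and 60 in RM. The remaining blocks were shallower, with 23 to 25 reads in RD and 17 to 18 in RM for MLOC_59686.1, and 17 to 19 reads in RD and 21 to 22 in RM for MLOC_9669.1. Among the blocks of 2 bases, 130 had 2 transitions, 191 had 1 and 97 had none.

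Of the 22876 clustered SNPs with enough reads, 39.3% were fixed for the non-reference base in both lines, against 56.2% of 38937 passing SNPs and 47% of 66255 SNPs with any entry in the filter field. These shares are those of the choice of members and carry no test. Another 7983 clustered SNPs (34.9%) showed both bases in both lines, against 4803 passing SNPs (12.3%), and 3498 (15.3%) were of the reference type in both lines, against 10430 passing SNPs (26.8%). Few SNPs of either kind differed between the lines. Non-reference in RD and reference in RM were 28 clustered SNPs (0.12%), against 56 passing SNPs (0.14%). The reverse was found at 4 clustered and 2 passing SNPs. What the mark stands for was read from the table. Among 100224 sites with another entry, the smallest span of 3 listed sites was 36 bases. The width of 35 bases was set just below it, so by this choice none of those sites had 3 listed sites within 35 bases. Of the clustered fixed sites, 8245 (91.7%) had 3 listed sites within 35 bases. Of all 40336 sites with the mark, 32994 (81.8%) had 3 listed sites within 35 bases. The remaining sites, members among them, carried the mark without enough listed neighbours, so the listed sites do not account for every mark.

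A transcript with clustered fixed sites held a median of 3 of them. There was 1 site in 849 transcripts, 2 sites in 526 and 3 sites in 703, and 80 transcripts (2.76%) had at least 10 sites and together held 1185 of all members (13.2%). The 8289 transcripts with passing fixed sites held a median of 2, and 268 of them had at least 10. Clustered and passing fixed sites were found together in 1663 transcripts (57.4%), and 1232 transcripts held no passing fixed site. The 15 transcripts with the most clustered fixed sites held 18 to 44 each and 375 in all (4.17%), and 13 of them were AK transcripts.

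**Figure D1:**
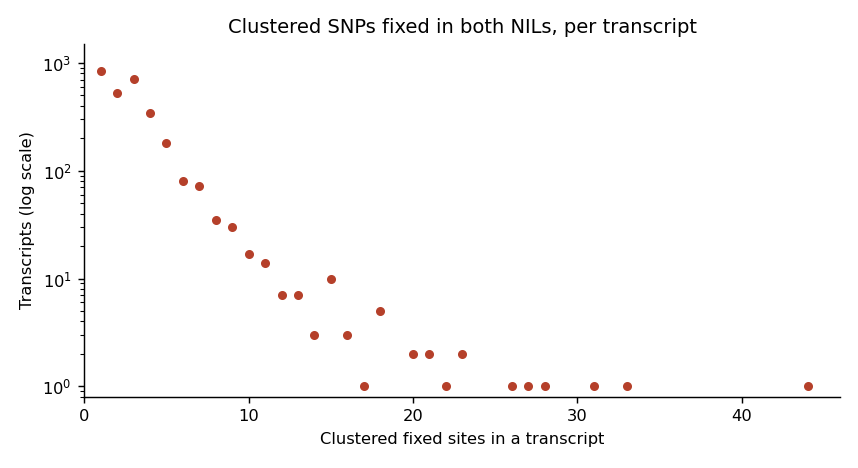
Number of transcripts (vertical axis, log scale) with a given number of clustered fixed sites (horizontal axis), 1 point for each number that occurs. Most of the 2895 transcripts held 1 to 3 sites, and the point farthest to the right is MLOC_66581.3 with 44.

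MLOC_66581.3, a predicted gene model with no function assigned in the sources used, had the most sites. Its 44 clustered fixed sites lay between positions 423 and 2376, with a mean read depth of 20.6 in RD and 20.2 in RM, and 27 of them were transitions. Summed over these sites, RD had 902 non-reference and 4 reference reads, and RM had 884 and 3. A read was counted at each site it covered. The transcript had 81 clustered sites in all, 61 of them with enough reads. The other 17 with enough reads were of the reference type in both lines and stood among the fixed sites. T702A, for example, was reference in all 16 reads of RD and all 13 reads of RM, while its neighbour A704G was non-reference in all 16 reads of RD and all 13 reads of RM. Both lines thus had the same series of alternating reference and non-reference bases along this transcript.

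The next transcripts by number of sites were cDNAs. AK376198 had 33 clustered fixed sites between positions 262 and 2722, with mean read depths of 38.2 in RD and 39.8 in RM, and the other 14 clustered sites with enough reads were reference in both lines. It also had 16 passing fixed sites, so that fixed differences ran along most of the transcript. AK369403 had 31 clustered fixed sites between positions 96 and 918, which were all of its listed clustered sites, at mean read depths of 42.9 in RD and 42.3 in RM. AK370479 had 27 clustered fixed sites, again all of those listed, at 31.1 reads in RD and 33.3 in RM. In AK249764.1 all 28 clustered sites with enough reads were fixed. Summed over these sites, no reference base was found among 564 reads of RD and 489 of RM, each read counted at every site it covered. In AK369403, AK370479 and AK249764.1 both lines thus differed from the reference at nearly every listed clustered site, while AK376198 held reference sites among the fixed ones, as MLOC_66581.3 did.

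The reads behind a clustered fixed site were many in some of these transcripts and its genotype quality still low. In AK369403 the site A300G had 57 reads in RD and 60 in RM and a genotype quality of 99 in both lines. At T801G of the same transcript all 37 reads of RD and all 44 reads of RM were non-reference, with genotype qualities of only 3 and 18. Over its 31 sites the genotype quality spanned 3 to 99 in RD and 5 to 99 in RM. AK375045 was the opposite case. Its 18 clustered fixed sites had 61 to 80 reads in RD and 59 to 76 reads in RM and a median genotype quality of 99 in both lines, and its lowest was 63 in each line.

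AK370110 had 18 clustered fixed sites and, alone among the 15 transcripts, no passing fixed site. Reference reads were more frequent in it than in the other 14, with 95.5% non-reference reads in RD and 95.6% in RM, against at least 98.4% in each line elsewhere. The caller gave a heterozygous genotype at 12 of its 18 sites in RD and 15 in RM. AK360420 had 21 clustered fixed sites, 19 of them transitions, and 16 other clustered sites that showed both bases in both lines. MLOC_22072.1, with 20 fixed sites at 5 to 27 reads in RD and 5 to 30 in RM, had 17 sites with both bases in both lines and 14 of the reference type. Over the 15 transcripts, 96 other clustered sites had enough reads, of which 56 were reference in both lines and 35 mixed in both. The remaining members of the 15 (AK372820, AK359708, AK370295, AK366607, AK357986 and AK374219) had 20 to 26 sites each.

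Clustered sites that followed each other at no more than 35 bases were joined into runs, and 3676 runs held at least 1 clustered fixed site. In 2279 runs (62.0%), with 6505 members, every site with enough reads was fixed. The other 1397 runs, with 2484 members, also held 2828 sites that were not fixed, of which 1603 (56.7%) showed both bases in both lines, 728 (25.7%) were of the reference type in both lines, and 2 had opposite bases in the lines. A single fixed site stood in 1206 runs, 725 runs had 2 and 1745 had 3 or more. The most in 1 run was 10, which was reached in MLOC_5431.2, MLOC_62307.3, MLOC_66581.3, MLOC_67141.1 and MLOC_68151.2. Transitions made up 60.9% of the sites in wholly fixed runs and 60.7% in the others. Both lines were called homozygous at 96.7% of the sites in wholly fixed runs and at 91.6% in the others, which was not tested because the choice of runs uses the same reads.

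The run of MLOC_5431.2 shows how depth and quality changed over a short stretch. It held 10 of the 16 clustered fixed sites of this transcript, between positions 1314 and 1404. At its first site, C1314T, 26 of 27 reads of RD and all 27 reads of RM were non-reference, and genotype quality was 0 in RD and 33 in RM. At A1344G in the middle of the run there were 29 reads in RD and 32 in RM, with genotype qualities of 9 and 12 and no reference read. At T1404C, the last site, there were 52 reads in RD and 56 in RM, with genotype qualities of 90 and 96. The 6 sites upstream, C861T to G924C, had 57 to 64 reads in RD and 60 to 65 reads in RM and a quality of 99 throughout. Reads and genotype quality in the run were thus lower than at the sites upstream in both lines.

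**Figure D2:**
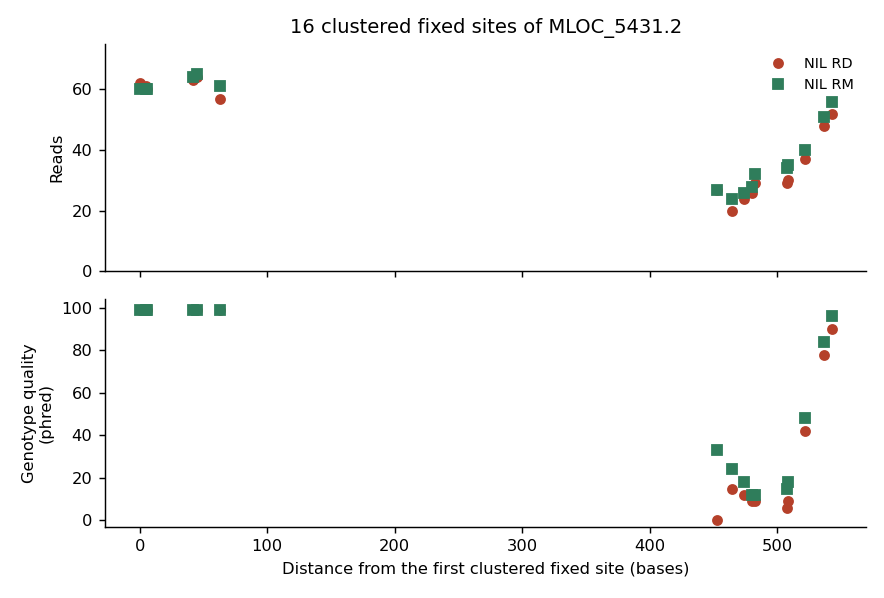
Read depth (upper panel, reads) and genotype quality (lower panel, phred scale) at the 16 clustered fixed sites of MLOC_5431.2 against the distance from the first of them in bases, with circles for RD and squares for RM. In both lines the 6 sites to the left had a quality of 99, while within the run of 10 to the right quality fell as low as 0 in RD and 12 in RM and was at least 90 at the last site.

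The choice of members fixes a high share of non-reference reads in both lines, and the read numbers are given as a description. Summed over sites, 216098 reads of RD were non-reference and 1299 reference (99.4% non-reference). In RM 215693 were non-reference and 1255 reference (99.4%). A read was counted at each site it covered, so these are not numbers of separate reads. No reference read was found at 8021 sites (89.2%) in RD, at 8071 (89.8%) in RM and at 7467 (83.1%) in both. Read depth was higher in RD at 4002 sites, higher in RM at 3920 and equal at 1067. The log2 ratio of depth, RD over RM, had a median of 0 over the 2895 transcripts, and 95% of them lay between -0.69 and 0.68, compared with -0.63 to 0.60 for transcripts with passing fixed sites. Among the 15 transcripts with the most sites the log2 ratio lay between -0.23 and 0.21. With the libraries pooled, none of these ratios can be set against a replicate error.

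The transcripts with the widest differences in depth between the lines were looked up. Among 811 transcripts with at least 3 clustered fixed sites, and on average 20 reads or more in either line, 95% had a log2 ratio between -0.47 and 0.45. The ratio was highest in AK358673, with 19 to 21 reads in RD and 11 to 12 reads in RM at its 3 sites, a log2 ratio of 0.84. AK365721 followed with 30 to 31 reads in RD and 17 to 19 in RM (log2 ratio 0.78), and AK376438 with 24 to 29 reads in RD and 14 to 19 in RM (0.69). The ratio was lowest in AK250529.1, with 14 to 19 reads in RD and 29 to 33 in RM at 5 sites, a log2 ratio of -0.91. In MLOC_30493.2 there were 10 to 16 reads in RD and 19 to 27 in RM (log2 ratio -0.84), and in MLOC_65623.1 13 reads in RD and 22 in RM at each of 4 sites (-0.76). These 6 transcripts were picked as the extremes of the ratio, so a wide gap between the lines follows from the choice. Each of them reached an average of 20 reads only in its deeper line, so the depth limit also favoured unequal depths. All reads of a transcript's neighbouring sites come from much the same fragments and are no separate measurements.

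The genotype called was that of the reads at most sites but not at every one. Both lines were called homozygous for the non-reference base at 8564 clustered fixed sites (95.3%) and at 98.8% of passing fixed sites. A heterozygous call in at least one line was given at 413 clustered fixed sites. At 16 sites, all in MLOC transcripts, a line was called homozygous for the reference base although at least 0.9 of its reads were not. An example was MLOC_27674.1 A75G, where 45 reads of RD were non-reference and 1 reference, and 37 reads of RM were non-reference and 4 reference, yet both lines were called as reference, with genotype qualities of 3 in RD and 12 in RM. Near the limit on the share, MLOC_53824.1 G120A was just inside, with 45 non-reference and 5 reference reads in RD and 49 and 4 in RM. So was MLOC_53824.1 C127G, with 45 and 5 in RD and 48 and 4 in RM, and MLOC_36174.1 A82G, which had 46 and 4 in RD and 45 and 5 in RM and was called heterozygous in both lines. MLOC_378.1 T43G (27 and 3 in RD, 30 and 2 in RM) and MLOC_46158.1 T47C (20 and 2 in RD, 27 and 3 in RM) were also just inside. Just outside were MLOC_3233.1 C126T with 52 and 6 in RD and 57 and 4 in RM, MLOC_60006.1 G151A with 49 and 3 in RD and 52 and 6 in RM, AK366166 A257G with 26 and 3 in RD and 34 and 2 in RM, MLOC_44025.1 C451T with 26 and 3 in RD and 36 and 2 in RM, and MLOC_32610.1 G208A with 26 and 3 in both lines.

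In all, 4 properties that the choice of members did not use directly were compared between clustered and passing fixed sites. Since sites of 1 transcript are linked, each transcript gave 1 site, the deepest over both lines, and transcripts with both kinds of site counted as clustered, which left 2895 against 6626 transcripts. Two-sided Fisher's exact tests were used, with p-values adjusted over the 4 tests by the Benjamini-Hochberg method. The tests compare these listed sites and have no replicate plants behind them. The 95% intervals (Clopper-Pearson) reflect counting error alone.

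Transitions were less frequent among clustered fixed sites. They made up 1706 of 2895 clustered sites (58.9%, 57.1 to 60.7) and 4395 of 6626 passing sites (66.3%, 65.2 to 67.5), a difference of -7.40 percentage points (odds ratio 0.728, Fisher's exact test, adjusted p = 8.1e-12). Over all sites the shares were 60.9% and 66.4%, and the ratio of transitions to transversions was 1.56 for clustered and 1.97 for passing fixed sites. The difference was not the same in the 2 kinds of transcript. Among AK transcripts transitions were 58.9% of clustered and 71.5% of passing sites (-12.5 points, Fisher's exact test, adjusted p = 6.2e-11), but among MLOC transcripts they were 58.9% and 61.5% (-2.56 points, adjusted p = 0.12). These separate comparisons were added after the values had been seen, and the difference between them was not tested.

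The caller was less certain of clustered fixed sites. A genotype quality of at least 20 in both lines was reached by 1659 of 2895 clustered sites (57.3%, 55.5 to 59.1) and by 5362 of 6626 passing sites (80.9%, 80.0 to 81.9), a difference of -23.6 points (odds ratio 0.316, Fisher's exact test, adjusted p = 9.8e-122). Predicted gene models were more frequent among the clustered transcripts and cDNAs less so. AK transcripts were 777 of 2895 (26.8%, 25.2 to 28.5) and 3209 of 6626 (48.4%, 47.2 to 49.6), a difference of -21.6 points (odds ratio 0.391, Fisher's exact test, adjusted p = 2.7e-88). The distance between the first pair of neighbouring fixed sites within 35 bases of each other was a multiple of 3 in 749 of 1958 clustered transcripts (38.3%, 36.1 to 40.4) and 605 of 1482 passing transcripts (40.8%, 38.3 to 43.4). This difference of -2.57 points did not pass the threshold (Fisher's exact test, adjusted p = 0.13), and it is not free of the choice of members. Distances of 1 or 2 bases are never multiples of 3, and the cluster mark selects them, with 762 of 5222 clustered pairs against 293 of 3249 passing pairs within 35 bases. With distances of at least 3 bases the difference was -1.98 points (Fisher's exact test, adjusted p = 0.28), within MLOC transcripts -0.70 points and within AK transcripts -0.65 points. The difference passed the threshold under 5 of 14 other settings. Of the 14, only that with distances of at least 3 bases left out the shortest ones. None of the 5 tests was repeated without them, so their part in these results was not tested. Over all pairs within 35 bases, multiples of 3 were 38.6% of clustered and 43.6% of passing pairs. From 3 to 35 bases the shares were 45.2% (43.7 to 46.6) and 47.9% (46.1 to 49.8).

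**Figure D3:**
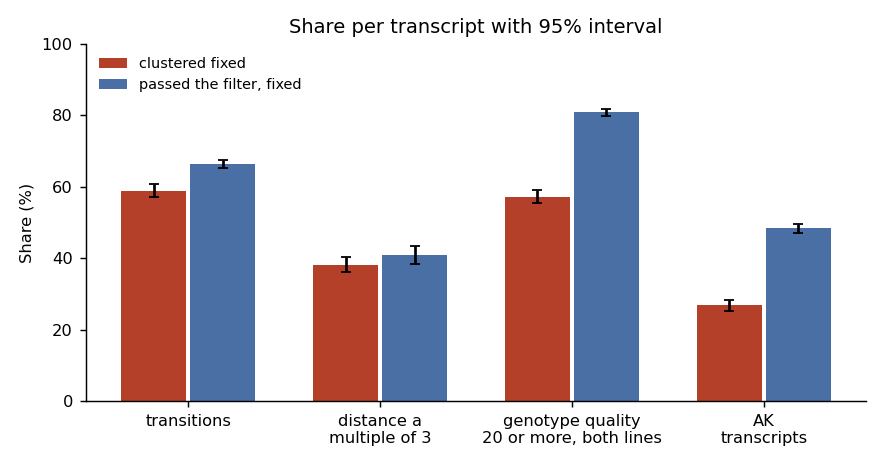
Shares in percent for clustered fixed sites (left bar of each pair) and passing fixed sites (right bar), with 95% Clopper-Pearson intervals, for transitions, distances that are multiples of 3, sites with a quality of 20 or more in both lines, and AK transcripts. The bars for quality stand at 57.3% and 80.9% and do not overlap in their intervals, whereas the intervals for the distances overlap.

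Depth differed between the sets too, so quality was also read at equal depth. The median depth was 19 reads in each line for clustered fixed sites, against 29 in RD and 28 in RM for passing fixed sites, and the median genotype quality was 27 in each line, against 75 and 72. At sites with 20 to 24 reads the median quality was 39 in RD and 36 in RM for clustered sites, against 60 in each line for passing sites. With at most 30 reads, quality per read had a median of 1.71 in RD and 1.67 in RM for clustered sites, and 2.77 and 2.75 for passing sites, where reads of full quality that all carry 1 allele give 3 per read. A quality under 10 in at least one line was given to 2200 clustered fixed sites (24.5%) and to 7.16% of passing fixed sites. Clustered sites thus had fewer reads, and a lower quality also at a like number of reads.

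**Figure D4:**
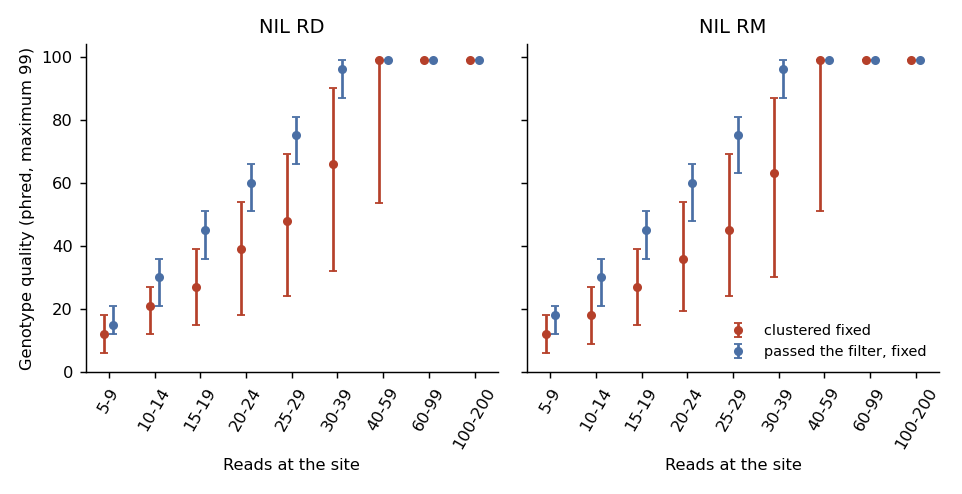
Median genotype quality (vertical axis, phred scale, points) with the lower and upper quartiles (bars) by read depth at the site (horizontal axis, reads) in RD and RM, for clustered and passing fixed sites. Below 40 reads the medians of clustered sites are lower in both lines, as at 20 to 24 reads with 39 in RD and 36 in RM against 60, and from 40 reads on both medians are 99.

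Quality per read was then set beside how crowded a site was. Counting the listed sites within 35 bases on either side, the site itself included, members with 1 or 2 had a median quality per read of 1.77 in RD and 1.71 in RM. Those with 3 had a median quality per read of 1.91 in RD and 1.89 in RM, those with 4 had 1.67 and 1.58, those with 5 had 1.42 and 1.38, and those with 6 or 7 had 1.29 and 1.27. The few with 8 or more, 17 sites of at most 30 reads, had 1.67 in RD and 1.33 in RM. Quality per read was thus lower in each class from 3 to 7 sites, while the least and the most crowded members did not follow this order. The median depth of members with 3 to 7 such sites lay between 18 and 20 reads in RD and 19 and 21 in RM. Within the 1663 transcripts that held both kinds of site, mean depth at clustered sites was lower than at passing sites in 914 transcripts in RD and 903 in RM. Where both kinds had sites of at most 30 reads, quality per read was lower at clustered sites in 620 of 1102 transcripts and higher in 369 in RD, and lower in 629 of 1096 and higher in 372 in RM. These values are descriptions with no test.

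Distances between neighbouring clustered fixed sites had a median of 12 bases (quartiles 5 and 23) over 6094 pairs, against 105 bases over 13608 pairs of passing sites, which is what the cluster mark selects. Distances that are multiples of 3 stood out in both sets. From 3 to 35 bases, 2014 of 4460 clustered pairs (45.2%, 43.7 to 46.6) and 1417 of 2956 passing pairs (47.9%, 46.1 to 49.8) were multiples of 3, where distances spread evenly would give 33.3%. The share was highest at 3 to 5 bases, with 50.9% of clustered and 54.4% of passing pairs. Distances of 1 or 2 bases were found in 762 clustered and 293 passing pairs. Pairs of 1 transcript are not independent of each other, and no test was made on these pooled shares beyond the one given above.

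**Figure D5:**
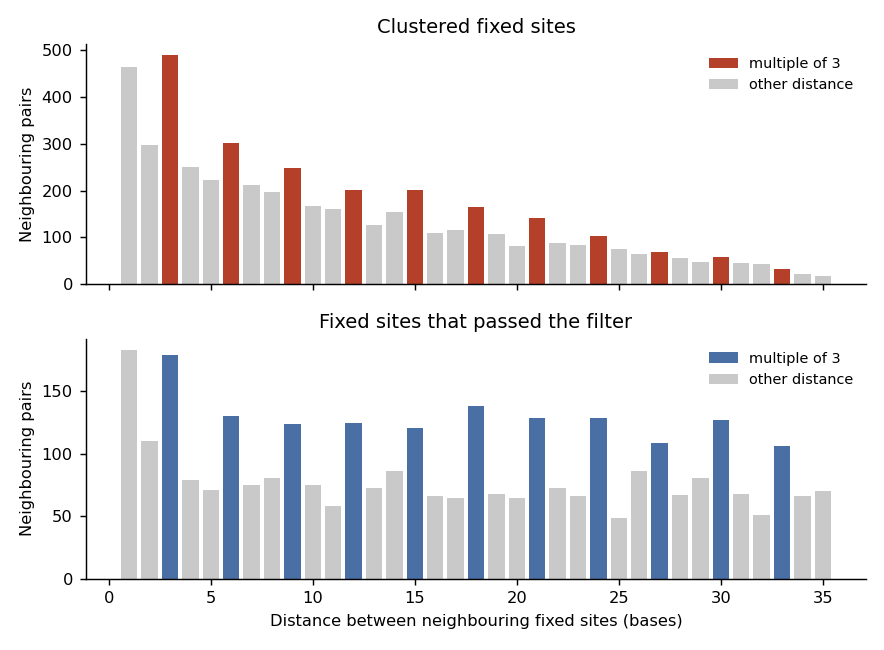
Number of neighbouring pairs (vertical axes, on different scales) at each distance from 1 to 35 bases (horizontal axis), for clustered fixed sites above and passing fixed sites below, with multiples of 3 in colour. In both panels the coloured bars stand above their neighbours, and they hold 45.2% of clustered and 47.9% of passing pairs from 3 to 35 bases.

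Such a regularity was looked for along single transcripts by sorting sites on the remainder of their position after division by 3. In AK370479, 26 of 27 clustered fixed sites shared 1 remainder, as did 17 of 18 in AK375045 and 19 of 21 in AK360420. AK375045 changed at C129A, A132C and A135G, then at A291G, G300C and C309T, and later at T573C and T576C, all at positions divisible by 3, and only C577T fell outside. In MLOC_66581.3 the commonest remainder took 18 of 44 sites, in AK376198 14 of 33 and in AK359708 10 of 23. Over the 80 transcripts with at least 10 clustered fixed sites the commonest remainder held a median of 50.0% of the sites and at least 70% in 14 transcripts (17.5%). Over the 268 transcripts with at least 10 passing fixed sites the median was 62.0%, and 100 (37.3%) reached 70%. The commonest of 3 remainders is a maximum, so its share lies on average above 33.3% even for sites placed at random. That expected share was not calculated, and these medians were not tested against it. Transcripts that kept mostly to 1 remainder occurred among the clustered sites beside others that did not. The reading frames were not used, so a shared remainder does not show which codon position changed.

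The kinds of base change also differed in direction. Changes to G or C made up 4112 of 7218 clustered changes between the pairs A or T and G or C (57.0%, 55.8 to 58.1) and 51.8% (51.1 to 52.5) of passing ones. T to C was the most frequent change among clustered fixed sites (1647 sites, 18.3%, against 17.9% of passing sites), and C to T, at 12.8%, was less frequent than among passing sites, at 16.8%. In MLOC transcripts 58.9% of these clustered changes led to G or C, against 53.2% of passing ones, and in AK transcripts 52.7% against 50.6%. This property was picked after its values were seen and was not tested. Members of MLOC transcripts were also shallower than those of AK transcripts, with median depths of 16 reads in each line against 27 in RD and 26 in RM, and median qualities of 21 in each line against 51 and 48. The first 35 bases of the transcript held 6.11% (5.62 to 6.62) of clustered and 3.51% of passing fixed sites. Within MLOC transcripts the shares were 8.14% and 5.77%, and within AK transcripts 1.70% and 1.63%.

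AK361738, chosen after its values were seen, stood apart from the other large transcripts in its base changes. Only 1 of its 17 clustered fixed sites was a transition (5.88%), the lowest share among the 80 transcripts with at least 10 sites, whose median was 66.7%. Most of its changes exchanged C and G, as at C129G with 38 reads in RD and 30 in RM, G324C with 53 and 36, and C582G with 51 and 56, all without a reference read. Its 3 passing fixed sites, C415T, T487C and C510T, were transitions. Of its 17 positions 15 shared a remainder after division by 3.

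The introgressed interval held few clustered fixed sites. Among the transcripts in the study's gene list for 132.01 to 134.21 cM, 6 had clustered SNPs with enough reads, and 7 of these 41 SNPs (17.1%, against 39.3% over all transcripts) were fixed in both lines, in 4 transcripts. The lines carry different alleles in this interval, and a site at which they differ cannot be fixed for the non-reference base in both. The share of 17.1% is therefore not free of the design. It also rests on 6 linked transcripts and was not tested. AK356405, annotated as a plastidic type I signal peptidase, an enzyme that removes targeting peptides from proteins, had A175G with 53 reads in RD and 42 in RM, all non-reference and with a quality of 99. Its clustered neighbours G158A and C170T were reference in every read of both lines, at 57 and 55 reads in RD and 42 reads each in RM.

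AK374634, annotated as an F-box family protein, a class whose members select proteins for breakdown, held both kinds of difference side by side. T940G and T942C were non-reference in all 21 reads of RD, and in all 31 and all 32 reads of RM. The base before them, A939G, was non-reference in all 21 reads of RD and reference in all 31 reads of RM, and G960A was reference in both lines. The low confidence model MLOC_31841.1 had G56C and C57T with 8 reads each in RD and 12 each in RM, and A89T with 11 reads in RD and 14 in RM, without a reference read. In MLOC_69624.1, another low confidence model, T215C was non-reference in 16 reads of RD and 18 reads of RM. It stood between G207C, which was reference in both lines, and G223T, at which 2 of 15 reads of RD and 6 of 19 reads of RM were non-reference.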

How the data were processed

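The authors trimmed single-end reads of shoot apex RNA with Trimmomatic, mapped them to the combined high and low confidence barley genes with Bowtie2, removed duplicates with Picard and called variants with GATK, which GEO's notes also name. The deposited table gives, for each line with its 4 libraries pooled, a genotype call, allele depths, read depth and genotype quality. Read depth is a count of reads per site after duplicates were removed, and genotype quality is a phred-scaled score of the authors' caller. Neither was normalized. The filter behind the cluster mark is not given in the sources used here, and its width of 35 bases was read from the table. A further 5 columns of a Morex sample outside the series were not used.

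Genotypes that a spreadsheet had turned into dates were restored, and zeros cut from the end of an allele depth were put back so that reference and non-reference reads together came nearest to the depth of the site. This changed 925 allele depths of members in RD and 877 in RM, and afterwards the sum equalled the read depth at 93.8% of members in each line. Members needed at least 5 reads and a non-reference share of at least 0.9 in each line. The decoding and choice were tested on simulated data with 22876 clustered sites, where 196 of 200 planted sites and 1 other site were called and no allele depth was decoded wrongly. The true allele depths of the real table are not known. At its site AK248937.1 A1G, 10 decoded non-reference reads stood against a read depth of 6 in both lines. The simulated result therefore does not show that every real allele depth was decoded rightly. Planted differences in shares were found by Fisher's exact test in 100 of 100 draws.

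Python 3.11.15, pandas 2.3.3, NumPy 2.4.6, SciPy 1.17.1 and matplotlib 3.10.9 were used. Depth limits the precision of each share, and intervals are 95% Clopper-Pearson intervals. PCR copies were removed by position without molecular identifiers, so intervals cover counting error only.

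The members, lists and tests were chosen with earlier results of these data known. Named were the 15 transcripts with the most members, members in the study's list of genes of the introgressed interval, the 5 longest blocks of adjacent sites, the 3 highest and 3 lowest depth ratios among transcripts with at least 3 members and an average of 20 reads or more in either line, and the 5 deepest sites on each side of the share limit. Other names (MLOC_5431.2 and the transcripts with equally long runs, AK361738 and MLOC_27674.1) were chosen after their values were seen. None of the 2895 transcripts matched the RefSeq gene table (0 matches), so product names are those of the study's list. Transcript sequences were not used here.

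Alternatives were minimum depths of 10 and 20, share limits of 0.8 and 1, homozygous calls in place of shares, allele depths as printed, genotype quality minimums of 20 and 60, allele depths summing to the read depth, all sites or first sites of a transcript, distances of at least 3 bases, at least 3 sites per transcript, and the depth ratio over sites. MLOC transcripts only, AK transcripts only and depths of 10 to 30 were added after the data had been seen.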

Additional observations from a re-analysis of the deposited data

How the results depend on the processing

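The number of clustered fixed sites was 8989 in 2895 transcripts, and fell to 4015 sites in 1316 transcripts with at least 20 reads in each line, to 4924 in 1749 when genotype quality had to reach 20 in each line, and to 2009 in 719 when it had to reach 60. The other 6 alternatives moved neither number by more than 1.5 times. The lower transition share kept its direction and its call in 13 of 14 alternatives, from -12.5 to -5.50 points, and was no longer past the threshold in MLOC transcripts alone (-2.56 points, Fisher's exact test, adjusted p = 0.12), a comparison added after the data had been seen. The difference in distances that are multiples of 3 was negative in all 14 alternatives but depends on the setting. It passed the threshold with at least 10 reads (-7.17 points, Fisher's exact test, adjusted p = 2e-04), at least 20 reads (-5.72, 0.017), genotype quality from 20 (-5.46, 0.012), all pairs (-5.05, 4.7e-06) and, added later, depths of 10 to 30 (-7.99, 0.0023), and did not in the other 9. With distances of at least 3 bases it was -1.98 points, within MLOC transcripts -0.70 and within AK transcripts -0.65 points. The differences in genotype quality (-28.1 to -13.7 points) and in the share of AK transcripts (-29.3 to -10.1 points) kept their direction and call in 12 of 12 and 11 of 11 alternatives. The median depth ratio was 0 on the log2 scale in both forms. Why these values moved was not tested.

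No paired analysis was possible because the libraries of each line had been pooled in 1 column before calling, and for the same reason no library was left out. No site carried the cluster mark together with another one, so counting such sites changed nothing. Depth limits what a fixed site means, since few reads of 1 allele do not show that the other is absent.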
